A study of Mus musculus with 27 samples.

Results

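The genes described here are 8 members of the pyroptosis pathway in mouse skeletal muscle after cardiotoxin injury: the pore formers Gsdme and Gsdmd, the proteases Casp1, Casp4 and Casp8, the sensor Nlrp3, the adaptor Pycard and the membrane rupture protein Ninj1. The members were chosen by gene name. Each name had 1 row among 55852 rows of the table of injured muscle and 1 row among 55677 rows of the table that holds control muscle. All 8 passed the filter on low values in the table of injured muscle and 7 passed it in the table with control muscle, where Nlrp3 was too low.

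Bulk RNA of whole muscle was sequenced from male mice. Cardiotoxin (CTX, a muscle-lysing peptide from cobra venom) was given to WT mice (C57BL/6J) and to mice labelled KO, described in the methods as global knockouts of Gsdme. Each genotype has 3 libraries at each of 4 times named by days after injection (D1, D4, D7, D14). A control group of 3 libraries came from uninjured WT muscle, called unloaded in the design text and contralateral in the methods. Contralateral muscle may come from the same mice as the WT D1 libraries, and the injury comparison did not pair them. The genotype field reads knockdown for the libraries titled KO, the injection site is the gastrocnemius in the methods and the thigh in the design text, and the age was not given in the sources used here. The design text states that each group held biological triplicates.

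Values are TPM (a measure of reads per gene length, scaled to the same total in each library), and the read depth of a library is unknown. Levels of different genes can be compared only as far as the gene lengths used hold. These were 1321 (Ninj1) to 3933 bases (Nlrp3) over the members, with 3800 for Pycard, and they were not checked. Differences are on log2(TPM + 1), a scale that compresses the changes of genes near 0 TPM. The study describes separate sequencing batches for the 24 h injury experiment and for the time course, and the labels do not say to which the WT D1 libraries belong, so that a batch cannot be told apart from injury or, on D1, from genotype. A batch may also enter the WT step from D1 to D4, the genotype average over days and the differences between days, which use WT D1. Mature myofiber markers were abundant in every library, with a summed level of 28257 to 138416 TPM over 8 genes. WT D1 replicate 3, KO D4 replicate 2 and KO D7 replicate 2 were each the lowest of their group in leukocyte markers, at a summed level of 483, 164 and 196 TPM over 7 genes against 390 to 2502 TPM in the other libraries of these groups. The first and second of them also stood apart in acinar pancreas markers, at a summed 30.2 and 52.2 TPM with 5 of 5 genes at 1 TPM or more, beside at most 0.75 TPM in the other D1 libraries and 1.27 to 11.04 TPM in the other D4 libraries. KO D7 replicate 2 was at 0.36 TPM, and the part of these markers in the results was not tested. Results that rest on them are given with and without them, and these 3 libraries were chosen after seeing the data. In bulk RNA, fewer cells of a type and less RNA per cell cannot be told apart.

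Pyroptosis is a lytic form of cell death. Sensors such as Nlrp3 recruit the adaptor Pycard (also called ASC), which activates Casp1, and Casp4 (caspase 11 of the mouse) binds bacterial lipopolysaccharide inside the cell. Both proteases cut Gsdmd, whose freed end forms pores in the plasma membrane. Gsdme is another pore former of the same family, Casp8 starts extrinsic apoptosis and can feed into the same pathway, and Ninj1 oligomerizes to break the membrane of dying cells. In injured muscle, infiltrating neutrophils and macrophages are well known carriers of this machinery.

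In the mm10 build named by the submitters' processing notes (GRCm38, GENCODE M21 annotation), Gsdme lies on the minus strand of chr6:50188888-50263862 and overlaps Mpp6 on the other strand. Gsdmd lies at chr15:75862327-75867408, Casp8 at chr1:58795374-58847503, Nlrp3 at chr11:59541568-59566956, Pycard on the minus strand of chr7:127989708-127993867 and Ninj1 at chr13:49187485-49196244. Casp1 (chr9:5298517-5307265) and Casp4 (chr9:5308828-5336783) are neighbouring paralogs on the same strand, and how shared reads were divided between them is not given in the sources used here. Casp8 also overlaps Gm37760, and Pycard overlaps Gm45205 on the other strand.

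RefSeq promoter windows of GRCm38.p6 were available for 7 of the 8 members, Gsdmd being the other one. The 250 bases before each start site were searched on both strands for the letters of 5 regulatory motifs. These were NF-kappaB (GGGNNNTTCC), AP-1 (TGANTCA), PU.1 (GAGGAAG), the interferon response element (GAAANNGAAA) and GAS (TTCNNNGAA). Their part in the levels of the members was not tested. Among 32851 windows of the same length, 4.65% held the NF-kappaB letters, 6.75% AP-1, 10.6% PU.1, 2.98% the interferon letters and 7.02% GAS. The windows with a match in a member are printed below with that of Gsdme, which held none, 5′ to 3′ on the strand of the gene and with matches in capitals. The first belongs to Casp4 (chr9:5308599-5308848, plus strand), the next to Pycard (chr7:127993868-127994117, minus strand), the next to Nlrp3 (chr11:59542436-59542685, plus strand) and the last to Gsdme (chr6:50261770-50262019, minus strand).
Casp4: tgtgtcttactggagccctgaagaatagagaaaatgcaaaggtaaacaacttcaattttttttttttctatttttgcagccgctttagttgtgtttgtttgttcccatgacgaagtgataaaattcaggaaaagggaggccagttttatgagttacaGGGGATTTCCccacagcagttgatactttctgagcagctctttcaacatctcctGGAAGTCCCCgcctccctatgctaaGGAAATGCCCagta
Pycard: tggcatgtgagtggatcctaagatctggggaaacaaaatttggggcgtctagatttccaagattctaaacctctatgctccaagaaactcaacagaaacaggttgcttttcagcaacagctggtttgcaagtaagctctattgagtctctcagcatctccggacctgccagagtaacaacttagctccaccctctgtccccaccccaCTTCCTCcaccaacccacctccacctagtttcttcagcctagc
Nlrp3: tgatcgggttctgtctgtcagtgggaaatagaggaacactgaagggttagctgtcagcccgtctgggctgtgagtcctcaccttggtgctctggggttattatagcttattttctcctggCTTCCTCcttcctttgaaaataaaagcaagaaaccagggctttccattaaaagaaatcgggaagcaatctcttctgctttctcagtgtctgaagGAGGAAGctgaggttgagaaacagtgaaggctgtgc
Gsdme: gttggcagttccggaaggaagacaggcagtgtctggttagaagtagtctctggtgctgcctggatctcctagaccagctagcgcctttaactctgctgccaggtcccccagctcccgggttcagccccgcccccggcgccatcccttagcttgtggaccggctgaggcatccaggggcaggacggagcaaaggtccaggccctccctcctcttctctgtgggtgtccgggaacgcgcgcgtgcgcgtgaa
Casp4 held 3 matches to the NF-kappaB letters, starting 93, 39 and 14 bases before the start site, a number reached by 6 of the 32851 windows (0.0183%). The same matches lie in the window of a second Casp4 start site, so both Casp4 windows are among these 6. Casp4 also had the most matches of the members over the 5 motifs searched, and this share takes no account of that choice. Pycard held 1 match to the PU.1 letters, 43 bases before its start, and Nlrp3 held 2, at 130 and 36 bases. The windows of Casp1, Casp8, Ninj1 and another Nlrp3 start held no match to any of the 5 motifs. A match describes letters in this window and not a bound site.

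Of the 8 genes, 7 were tested for the effect of injury in WT muscle at D1 against control, and all 7 rose (adjusted p under 0.05, limma). Among all 13041 genes tested, 55.4% were called higher, and the median gene gained 0.66, against a median of 2.06 over the 7 members. The comparison addresses what the injury does to WT muscle. With median-of-ratios scaling or quantile normalization the genes called were split into 2770 higher and 2763 lower or 2553 higher and 2673 lower, in place of 7229 and 736. Leukocyte markers rose with them, 7 of 7, from a summed 53.6 to 65.1 TPM in control to 485 to 2513 TPM at D1, as did 6 of 6 neutrophil and 8 of 9 monocyte and macrophage markers, while 3 of 8 mature myofiber markers fell. The part of these cells in the members' rise was not tested.

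Pycard, the adaptor, changed most. It was at 0.42, 0.31 and 0.25 TPM in the control libraries and at 34.2, 46.3 and 13.3 TPM at D1, a 95.8-fold ratio of the means and a log2 difference of 4.44 ± 0.40 (SE, n = 3 per group, adjusted p = 0.000639, limma). No control library came near any D1 library. Pycard thereby moved from the seventh of the 8 levels in control muscle to the second at D1. Nlrp3, the sensor that acts before Pycard, was at 0.07, 0.27 and 0.12 TPM in control and at 2.99, 5.97 and 0.88 TPM at D1. All 3 injured libraries lay above control, a log2 difference of 1.70, but the gene was not tested in the model for lack of 3 libraries at 1 TPM, and an exact two-sided permutation test of 3 against 3 gave p = 0.1, the smallest it can give. With no filter the limma adjusted p of Nlrp3 was 0.0451.

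All 3 proteases rose. Casp8 went from 3.42 ± 0.46 to 19.3 ± 10.4 TPM (SD, n = 3), a log2 difference of 2.06 ± 0.38 (SE, adjusted p = 0.00343). For Casp4 the means were 1.16 ± 0.36 and 7.95 ± 4.72 TPM, a difference of 1.88 ± 0.44 (adjusted p = 0.00748). Casp1 went from 0.79 ± 0.30 to 5.52 ± 3.25 TPM, a difference of 1.74 ± 0.39 (adjusted p = 0.00639). In each of them the D1 libraries lay above all control libraries and spread widely, with WT D1 replicate 3 lowest: Casp1 was at 5.74, 8.65 and 2.17 TPM in replicates 1 to 3. Without that library the differences were 2.50, 2.43 and 2.19 for Casp8, Casp4 and Casp1.

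Of the executioners, Gsdmd and Ninj1 had larger differences than Gsdme, and the genes were not tested against each other. Gsdmd, the substrate of Casp1 and Casp4, was at 2.54, 3.75 and 4.11 TPM in control and 20.7, 35.9 and 10.8 TPM at D1, a difference of 2.26 ± 0.39 (SE, adjusted p = 0.00284). Ninj1 was already the most abundant member in control muscle, at 22.1 ± 0.67 TPM (SD, n = 3), and reached 104 ± 42.3 TPM, a difference of 2.09 ± 0.28 (SE, adjusted p = 0.00163). Gsdme was at 1.55, 2.34 and 1.65 TPM in control and at 2.76, 4.86 and 3.16 TPM at D1, a 1.95-fold ratio and a difference of 0.67 ± 0.24 (adjusted p = 0.0388). The Gsdme libraries did not overlap, but its gain was the smallest of the 7 and close to that of the median gene. Scaled by median-of-ratios, which brings the median gene to 0.0018, the Gsdme difference was 0.10 (adjusted p = 0.704), and after quantile normalization it was -0.068, whereas the other 6 members stayed called and higher under both. The Gsdme call was also lost without WT D1 replicate 2 (adjusted p = 0.0826) and without control replicate 1, 2 or 3 (0.130, 0.0534 and 0.117). It was lost as well with no filter on low values (0.110) and with a block for the replicate number (0.0574).

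The D1 values above are those of the table quantified with control muscle. The same libraries also stand in the table of the time course, where 7 members differed by at most 0.375%, while Gsdmd was 8.31% to 11.9% higher in the control table. A gap over 5% in all 3 libraries was seen in 8.96% of 12301 genes.

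**Figure D1:**
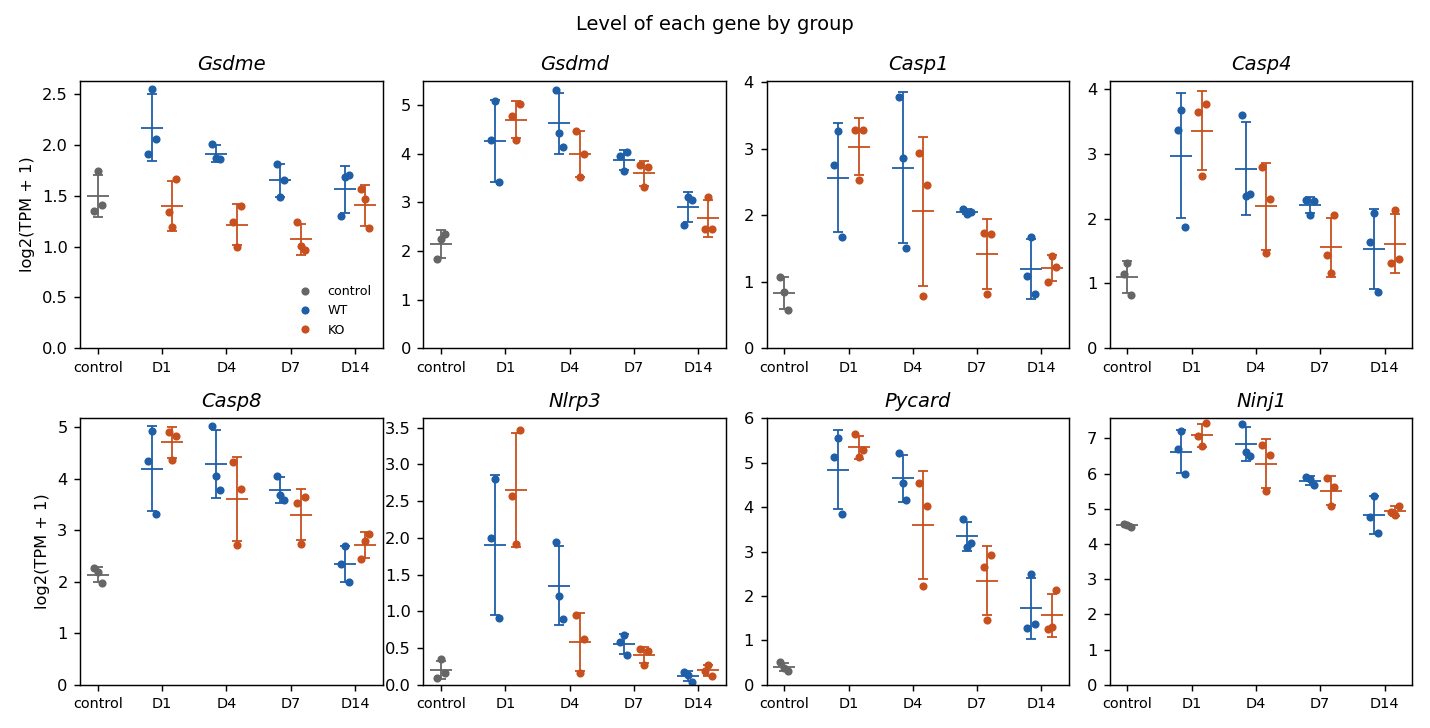
Level of each of the 8 genes, as log2(TPM + 1), by group, with points for libraries and bars for the mean ± SD of 3 libraries (control grey, WT blue, KO orange). The control group comes from another table than the injured groups. Gsdme sits lower in KO than in WT without overlap on D1, D4 and D7, while the other 7 genes have their highest mean on D1 or D4 in both genotypes.

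Gsdme was the only member whose mean was higher in WT than in KO muscle on all 4 days. In WT it was at 2.76, 4.85 and 3.16 TPM on D1, 3.02, 2.67 and 2.63 TPM on D4, 2.51, 1.8 and 2.15 TPM on D7, and 1.46, 2.21 and 2.26 TPM on D14. In the libraries labelled KO it was at 1.53, 1.28 and 2.17 TPM on D1, 1.36, 1.00 and 1.64 TPM on D4, 1.37, 1.01 and 0.95 TPM on D7, and 1.96, 1.77 and 1.27 TPM on D14. The KO libraries thus lay below every WT library of the same day on D1, D4 and D7 and overlapped with them on D14, and none was at 0.

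Gsdme is the targeted gene, so these values check the labels. The KO mean was below the WT mean by 53.8% on D1, by 51.9% on D4, by 48.5% on D7 and by 15.7% on D14. Which part of the gene is deleted was not given in the sources used here, and a gene-level TPM includes any transcript left outside a deletion, so the labels are checked only in part. On D14 the level alone did not separate the genotypes.

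In the model over all genes, the Gsdme differences, KO minus WT, were -0.77, -0.70, -0.58 and -0.16 on D1, D4, D7 and D14, each with an SE of 0.19 and none called (adjusted p = 0.628, 0.212, 0.776 and 1, limma). Unadjusted p-values of the first 3 were 0.00063, 0.00152 and 0.00655, also from limma. Averaged over the days, Gsdme was lower by 0.55 ± 0.09 (SE, 12 libraries per genotype, unadjusted p = 1.27e-05, adjusted p = 0.0664). For this single value, exact two-sided permutation of genotype within days gave p = 8.75e-05 over 160000 assignments. The difference was negative on every day under each alternative. The average was called after median-of-ratios scaling (adjusted p = 0.0332), with library quality weights (0.0209), and without KO D1 replicate 3 (0.0458) or WT D14 replicate 1 (0.0498). It was not called after quantile normalization (0.0959), with a replicate block (0.142), with no filter (0.173) or without the 3 libraries low in leukocyte markers (0.197). With 1 library left out its adjusted p reached 0.200. The F test of differences between days had an adjusted p of 0.527 for Gsdme, so a smaller difference on D14 was not shown.

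For the other 7 members, no difference between KO and WT was called on any day, on average or between days. This comparison addresses what Gsdme does in the injured muscle. The methods name purchased WT mice and also littermates from crosses of heterozygotes, and do not say which were sequenced. Loss of Gsdme thus cannot be told apart from other differences between the KO and WT mice. Of all 15718 genes the share called was 0.00636% for D1 and also for the average, the single genes being Gm42793 and Dynlt1b, and 0% for D4, for D7, for D14 and between days, where 3568, 481, 324 and 1203 genes had an unadjusted p under 0.05 (limma). At an unadjusted p under 0.05 the only member on D1, D4, D7 and on average was Gsdme, and on D14 and between days there was none, beside 2.06% and 7.65% of all genes. The adjusted p between days was 0.527 to 0.624 over the 8 members. With SEs of 0.35 to 0.54 for these 7 genes on 1 day, the intervals of the differences are wide and do not show equal levels.

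The differences of these 7 genes are given by day. On D1 all 7 were higher in KO, by 0.39 (Casp4) to 0.75 (Nlrp3), against 0.09 for the median of all genes. Libraries overlapped for each of the 7: Nlrp3 was at 4.91, 2.78 and 10.0 TPM in KO and at 2.98, 5.97 and 0.88 TPM in WT. Without WT D1 replicate 3, the library low in leukocyte markers, the difference was -0.16 for Casp4 and 0.0019 to 0.25 for the other 6. Leukocyte markers were higher in KO as well on D1, 7 of 7 with none called, and summed to 1311 to 2562 TPM in KO and 483 to 2502 TPM in WT.

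On D4 all 8 were lower in KO, by 0.55 (Ninj1) to 1.05 (Pycard), while the median of all genes was -0.28. Pycard was at 22.3, 3.65 and 15.4 TPM in KO and 36.5, 22.3 and 17.0 TPM in WT. Nlrp3 was at 0.94, 0.12 and 0.54 TPM in KO and 2.84, 1.30 and 0.86 TPM in WT, a difference of -0.77 ± 0.39 (SE, adjusted p = 0.229). The lowest value of each of the 8 was in KO D4 replicate 2, and apart from Gsdme the groups overlapped. Without the 3 libraries low in leukocyte markers the 8 differences were -0.03 (Casp1) to -0.59 (Gsdme), and with quality weights those of Casp4, Casp8 and Ninj1 turned to 0.27, 0.058 and 0.021. Leukocyte markers were lower in KO on D4, 7 of 7 with none called and a median difference of -1.22. Satellite cell and myoblast markers were lower as well, 5 of 5 with a median of -1.43, and summed to 37.0 TPM in KO D4 replicate 2 against 350 and 390 TPM in the other KO D4 libraries, while mature myofiber markers were higher, 8 of 8 with a median of 0.81. None of either list was called, 4 genes of each had an unadjusted p under 0.05 (limma), and the part of these cells in the members' differences was not tested.

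On D7 all 8 were again lower in KO. Casp1 was at 2.31, 0.75 and 2.28 TPM in KO and 3.26, 3.05 and 3.12 TPM in WT. Casp4 was at 1.72, 1.24 and 3.17 TPM in KO and 3.91, 3.18 and 3.83 TPM in WT, and Pycard at 5.32, 1.74 and 6.61 TPM in KO and 12.2, 7.58 and 8.16 TPM in WT. These 3 genes and Gsdme lay below WT in every KO library on D7, 4 of 8, beside 14.6% of all genes. For each of the 4, an exact two-sided permutation test of 3 against 3 gave p = 0.1, the smallest it can give. Gsdme is the targeted gene, and the other 3 are not independent, with r of 0.893 to 0.926 over the 24 injured libraries. The log2 differences were -0.63 ± 0.53 for Casp1, -0.65 ± 0.47 for Casp4 and -0.99 ± 0.54 for Pycard (SE, adjusted p = 0.776 for each), and without the 3 libraries low in leukocyte markers they were -0.33, -0.46 and -0.55. On D1 and D4 only Gsdme of the 8 lay below WT without overlap, beside 3.38% and 11.2% of all genes, and on D14 none did, beside 1.04%. Leukocyte markers were lower in KO on D7, 7 of 7 with none called, and their part in the members' differences was not tested.

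On D14 the signs were mixed on log2(TPM + 1), with 5 of the 7 higher in KO (Casp1, Casp4, Casp8, Nlrp3 and Ninj1) and Gsdmd and Pycard lower, and the libraries of all 7 overlapped. The Casp1 difference was 0.011 ± 0.53 (SE), and its mean TPM was lower in KO (1.31 against 1.36). Casp8 was at 4.42, 5.93 and 6.60 TPM in KO and at 4.11, 5.50 and 3.00 TPM in WT. Leukocyte markers were higher in KO on D14, 7 of 7 with none called and a median difference of 0.25.

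**Figure D2:**
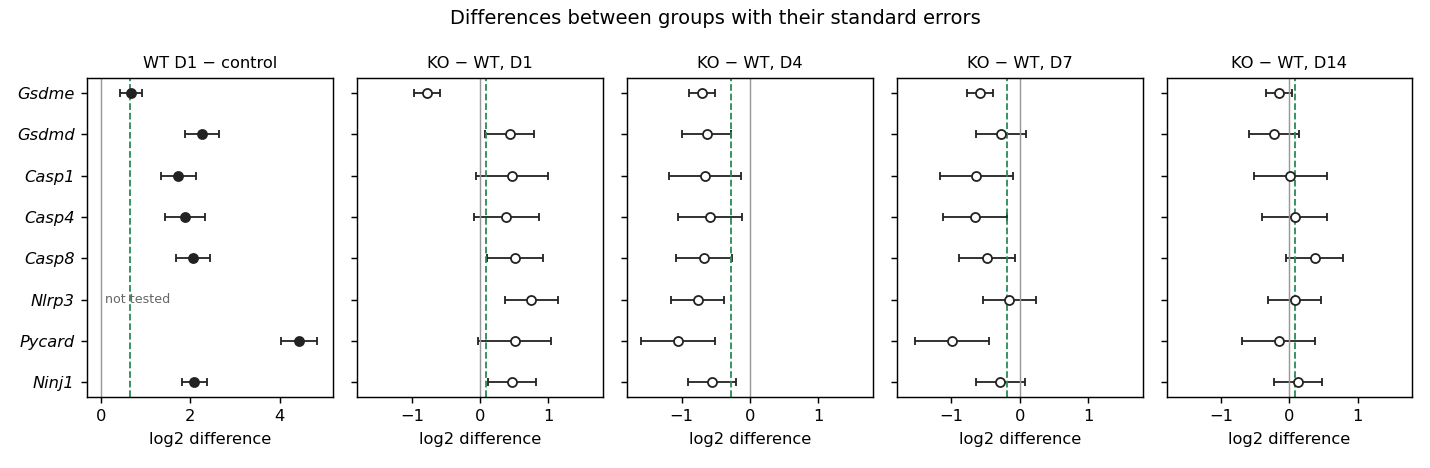
Log2 differences of the 8 genes (point) with their SE (bar) for WT D1 against control and for KO against WT on each day, 3 libraries per group, filled where the adjusted p was under 0.05. The grey line marks 0 and the dashed green line the median of all genes tested. All 7 tested genes rose with injury, Gsdme at the median of all genes (0.67 against 0.66), and no KO difference was called.

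Changes over time were tested step by step within each genotype. From D1 to D4 in WT muscle, 4 members had positive and 4 negative differences, none called (none at an unadjusted p under 0.05, limma), beside 14.6% of all genes called higher and 5.27% called lower. From D4 to D7 in WT all 8 differences were negative and none was called, beside 9.31% of genes called lower, with Ninj1 (-1.04 ± 0.35, adjusted p = 0.0589) and Pycard (-1.31 ± 0.54, adjusted p = 0.103) at an unadjusted p under 0.05. In WT, Ninj1 was at 167, 97.4 and 88.9 TPM on D4 and at 58.7, 55.9 and 49.8 TPM on D7, without overlap. With library quality weights 7 of the 8 were called in this step, Casp4 being the exception, beside 50.9% of all genes called lower with those weights.

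From D7 to D14 in WT, 4 of the 8 fell, beside 30.9% of all genes called lower and a median of -0.45 for all genes. The genes called were 145 higher and 4855 lower, and 802 and 1348 with median-of-ratios scaling, which took the median to -0.0067. Pycard went from 9.32 ± 2.53 to 2.57 ± 1.83 TPM (SD, n = 3), a difference of -1.62 ± 0.54 (SE, adjusted p = 0.0312). Casp8 was at 15.7, 11.8 and 11.1 TPM on D7 and at 4.11, 5.50 and 3.00 TPM on D14, a difference of -1.43 ± 0.41 (adjusted p = 0.0186). Ninj1 (-0.99 ± 0.35, adjusted p = 0.041) and Gsdmd (-0.98 ± 0.36, adjusted p = 0.0472) fell less. Of the 4, Casp8 alone stayed called after median-of-ratios scaling or quantile normalization, and it lost its call without WT D14 replicate 3 (adjusted p = 0.0928) or WT D7 replicate 1 (0.086), when none of the 8 was called, beside 1.77% and 3.95% of all genes called lower. Without WT D14 replicate 1, WT D7 replicate 2 or WT D7 replicate 3, 1 of the 8 was called. Leukocyte markers fell in the same step, 7 of 7 with a median of -2.31. The Gsdme difference was -0.09 ± 0.19 (adjusted p = 0.724), and turned to 0.32 after median-of-ratios scaling, 0.48 after quantile normalization and 0.043 without WT D14 replicate 1.

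In KO muscle, the step from D1 to D4 held the calls. Nlrp3 fell from 4.91, 2.78 and 10.0 TPM to 0.94, 0.12 and 0.54 TPM, a difference of -2.07 ± 0.39 (SE, adjusted p = 0.00172), and Pycard from 48.8, 33.9 and 38.2 TPM to 22.3, 3.65 and 15.4 TPM, a difference of -1.75 ± 0.54 (adjusted p = 0.0303). Neither gene's D1 and D4 libraries overlapped, and all 8 members had negative differences, 2 of them called beside 12.2% of all genes called lower. The Nlrp3 call held without each library in turn, with adjusted p of 0.00104 to 0.0164. It missed the threshold when only the groups compared entered the fit (0.0601). The Pycard call was lost without KO D4 replicate 2, where the difference was -1.06 (adjusted p = 0.17), and without KO D1 replicate 1 (0.0956) or replicate 3 (0.0872), while 5 of the 8 were called without KO D4 replicate 1, beside 19.4% of all genes called lower without it. Neutrophil markers fell in the same step, 5 of 6 with a median of -3.85. None of the 8 was called from D4 to D7 or from D7 to D14 in KO, beside 0% and 0.477% of all genes called lower, although Pycard and Ninj1 in the former and Gsdmd in the latter had an unadjusted p under 0.05 (limma), and without KO D4 replicate 2 Pycard and Ninj1 were called in the former, beside 8.08% of all genes called lower without it. WT and KO steps were not tested against each other beyond the F test above.

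Levels on D14 are set beside control here across tables, without a test. Ninj1 was at 28.4 ± 11.1 TPM in WT and 29.6 ± 2.90 TPM in KO against 22.1 ± 0.67 TPM in control, and Gsdmd at 6.56 ± 1.5 and 5.54 ± 1.85 TPM against 3.47 ± 0.82 TPM (SD, n = 3). Pycard had D14 libraries from 1.40 to 4.68 TPM and control libraries from 0.25 to 0.42 TPM. For Gsdmd and Pycard, every D14 library of either genotype lay above every control library. On D14 the WT mean of Nlrp3 was 0.087 ± 0.051 TPM and the KO mean 0.147 ± 0.060 TPM, beside 0.153 ± 0.104 TPM in control.

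Ordered by mean level, the groups of a gene mostly overlapped with their neighbours. For 4 genes (Casp4, Casp8, Nlrp3 and Ninj1) no neighbouring pair of the 9 groups was free of overlap. KO D1 held the highest mean of Gsdmd, Casp1, Casp4, Casp8, Nlrp3, Pycard and Ninj1. Gsdme ran in another order, WT D1, WT D4, WT D7, WT D14, control, KO D14, KO D1, KO D4 and KO D7, in which the WT D4 and WT D7 libraries alone did not overlap. Between genes, Ninj1 was the most abundant member in all 9 groups, and Nlrp3 was the least abundant in 8, the exception being KO D1, where Gsdme was (1.66 TPM against 5.90 TPM).

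Across the 24 injured libraries the 7 members other than Gsdme varied together. Pearson's r on log2(TPM + 1) was from 0.829 to 0.968 over their 21 pairs, the highest for Pycard with Ninj1. These values describe libraries that share day, genotype and cell makeup, and carry no test. Gsdme had r of 0.372 to 0.465 with the other 7 over all libraries, 0.629 to 0.822 over the 12 WT libraries and 0.162 to 0.460 over the 12 KO libraries.

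The leukocyte marker mean ran along with the same 7 genes, with r from 0.870 (Nlrp3) to 0.983 (Casp8). Nlrp3 stood out by its r of 0.980 with neutrophil markers, which was above its value for leukocytes in general and for monocytes and macrophages (0.872). Ninj1 and Pycard were closest to the monocyte and macrophage mean (0.983 and 0.977). Gsdme had an r of 0.409 with the leukocyte mean, 0.702 within WT and 0.291 within KO libraries. Against mature myofiber markers all 8 ran the other way, from -0.553 for Gsdme to -0.862 for Casp1.

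**Figure D3:**
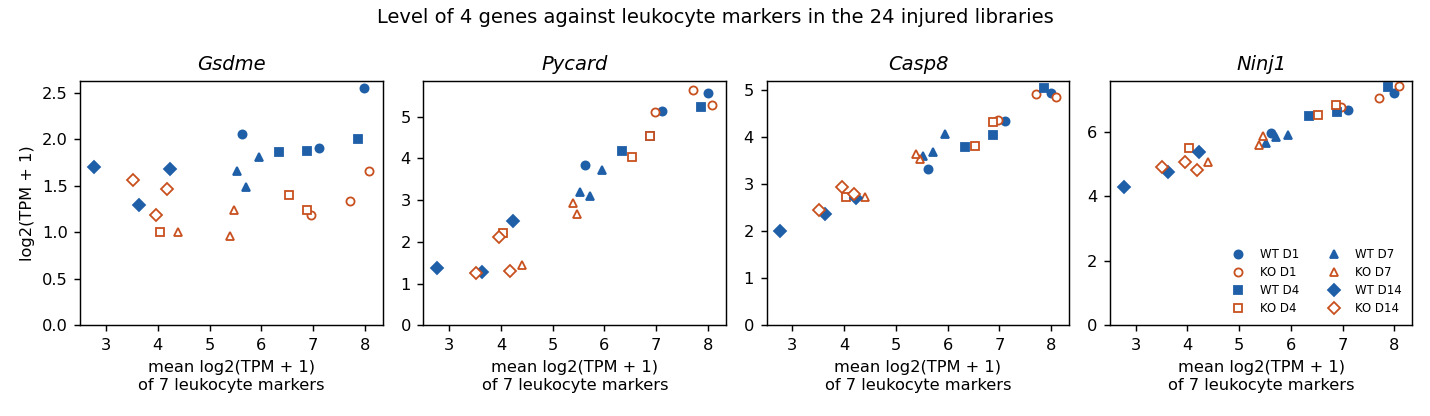
Level of Gsdme, Pycard, Casp8 and Ninj1, as log2(TPM + 1), against the mean log2(TPM + 1) of 7 leukocyte markers, with a point for each of the 24 injured libraries (WT filled, KO open, shape by day). Casp8 follows the markers closely (r = 0.983) in both genotypes, while Gsdme has an r of 0.409 and its KO libraries of D1, D4 and D7 lie below the WT libraries of the same day.

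Among the 15717 other genes tested, those most like each member over the 24 libraries were as follows. Gsdme had Hsd17b7 (r = 0.731), Tmem181b-ps (0.730) and Dynlt1b (0.716), Dynlt1b being the gene called on average between KO and WT, at -0.98 ± 0.10 (SE, adjusted p = 0.000112). Casp8 had Ywhab, Nfkb1 and Iqgap1 at 0.990 to 0.993. Nlrp3 had Trim30b, Gcnt1 and Atp8b4 at 0.982 to 0.985, Pycard had Plaur, Trpv2 and Fcgr1 at 0.981 to 0.982, and Ninj1 had Ftl1, Tyrobp and Stab1 at 0.986. Gsdmd was most like Tacc3, Rcc2 and Ptpn18 (0.969 to 0.971), Casp1 like Tmsb4x, Rab8b and Sem1 (0.973 to 0.975), and Casp4 like Vill, Pus7l and A530064D06Rik (0.950 to 0.954). For each member these genes ran closer to it than any other member did. As they were picked as the highest of all genes tested, this says little about how closely the members run together. Gsdme had the lowest of these r.

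Around the 8 members, 66 related genes were described in 7 lists. Of these, 41 could be tested for injury, and 36 rose and none fell, with a median of 1.29 against 0.66 for all genes and 55.4% of all genes called higher. The 8 other gasdermins were all below the filter, with no library above 0.37 TPM: Gsdma, a skin gasdermin, reached 0.36 TPM, and Gsdma2 and Gsdma3 were listed at 0 in every library, so Gsdmd and Gsdme were the gasdermins measured at 1 TPM or more.

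Of the sensors and their partners, 9 of 10 tested rose. Aim2, which senses DNA in the cytosol, went from 0.40 ± 0.17 to 5.78 ± 2.03 TPM (SD, n = 3), a difference of 2.24 ± 0.25 (SE, adjusted p = 0.00114), and Mefv, which encodes pyrin, from 0.02 ± 0.03 to 4.62 ± 3.54 TPM, a difference of 2.22 ± 0.46 (adjusted p = 0.00518). Among the other caspases 5 of 6 rose, Casp6, an effector caspase, by 1.24 ± 0.35 (adjusted p = 0.0159).

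All 7 adaptors and necroptosis genes rose. Zbp1, a nucleic acid sensor that can start necroptosis, had the largest difference, 4.5 ± 0.44 (adjusted p = 0.00089), from 0.73 ± 0.36 to 43.7 ± 27.9 TPM. Ripk3, the necroptosis kinase, rose by 2.87 ± 0.36 (adjusted p = 0.00142). Of the cytokines and receptors, 7 of 7 tested rose: Il1rn, the antagonist of the Il1r1 receptor, by 4.16 ± 0.61 (adjusted p = 0.00204) and Il1b, the cytokine that Casp1 matures, by 3.19 ± 0.55 (adjusted p = 0.00288). Gzma was the only granule protease that could be tested for injury and rose by 2.95 ± 0.41 (adjusted p = 0.00172). Among inhibitors and membrane repair genes 7 of 10 rose, with Serpinb1a, an inhibitor of neutrophil proteases, at 4.18 ± 0.52 (adjusted p = 0.00137) and Birc3, an inhibitor of apoptosis, at 1.78 ± 0.30 (adjusted p = 0.00269). Many of these genes are expressed by leukocytes, whose markers rose in the same libraries as given above.

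Between KO and WT none of the 48 related genes tested was called on any day or on average, and 5, 11, 0 and 0 had an unadjusted p under 0.05 on the 4 days in order and 2 on average (limma), beside 5.38%, 22.7%, 3.06%, 2.06% and 3.54% of all genes. The 11 of 48 on D4 are near that background. Of their differences, 34 of 48 were positive on D1, 46 of 48 negative on D4, 46 of 48 negative on D7 and 32 of 48 positive on D14, with medians of 0.30, -0.53, -0.27 and 0.10 against 0.09, -0.28, -0.19 and 0.08 for all genes. On average over days, Gzma had the lowest unadjusted p of the 48 (0.0164), at -0.62 ± 0.24 (SE, adjusted p = 0.861, limma). Il18, the cytokine that Casp1 matures beside Il1b, was at -0.42 ± 0.23 and Il1b at -0.51 ± 0.29 (adjusted p = 0.861 for both). Values of the next genes by list were -0.28 ± 0.13 for Casp9, -0.28 ± 0.21 for Ripk3, -0.26 ± 0.20 for Mlkl, the pore former of necroptosis, -0.36 ± 0.18 for Gzmb and -0.24 ± 0.17 and -0.25 ± 0.21 for the interferon-induced GTPases Gbp2 and Gbp3 (adjusted p = 0.861 for each). Serpinb9 and Chmp4b, a subunit of the membrane repair machinery, were at -0.13 ± 0.12 and -0.09 ± 0.08.

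Over time, 16 of the 48 fell from D7 to D14 in WT (30.9% of all genes were called lower) and 13 fell from D1 to D4 in KO (12.2% of all genes). The 16 of 48 are near that background. Calls in the lists, here and after injury, were counted without rescaling. In the WT step, median-of-ratios scaling took the genes called lower from 4855 to 1348. In the WT step the calls were in the adaptors and necroptosis genes (5 of 7), the other caspases (4 of 6), the sensors (4 of 14), the inhibitors and membrane repair genes (2 of 11) and the granule proteases (1 of 2), and none in the cytokines and receptors (0 of 8, 1 of them at an unadjusted p under 0.05 in limma). In the KO step they were in the cytokines and receptors (5 of 8), the sensors (4 of 14), the adaptors and necroptosis genes (2 of 7) and the inhibitors (2 of 11). Whether these steps differ between genotypes in these lists was not tested. These comparisons share groups with those of KO against WT, and are not independent of them.

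**Figure D4:**
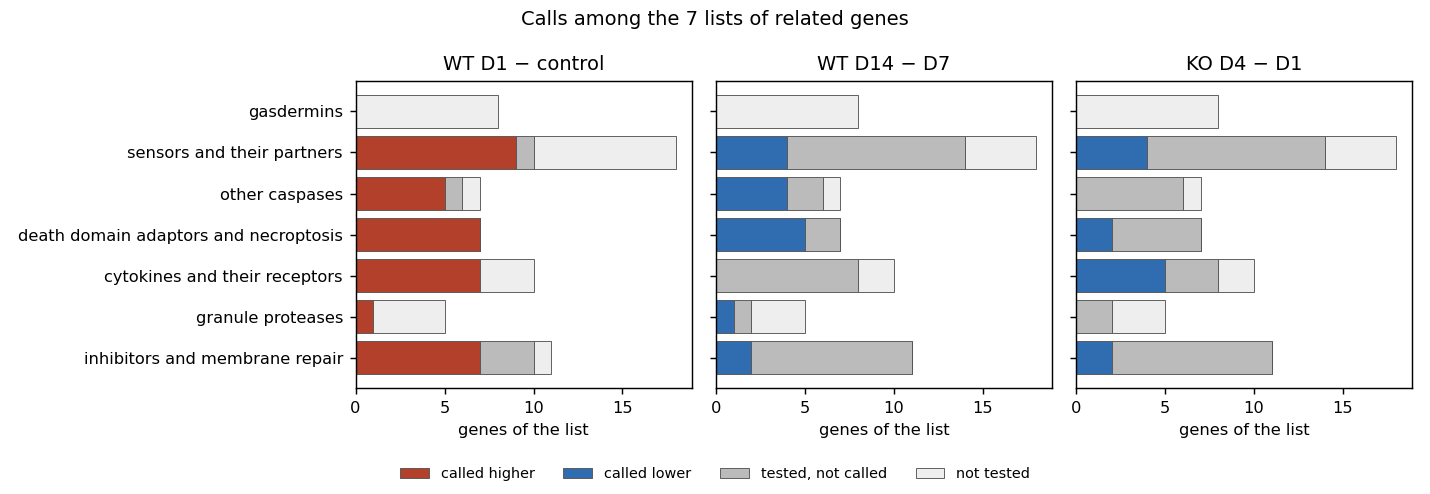
Number of genes in each of the 7 lists of related genes that were called higher, called lower, tested without a call or not tested, for WT D1 against control, WT D14 against D7 and KO D4 against D1. Of 41 tested, 36 were called higher after injury, and of 48 tested, 16 and 13 were called lower in the other steps.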

How the data were processed

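The authors deposited TPM for each gene and library in 2 tables, with group means beside the libraries, which were not used. Per the labels, mRNA libraries were made with a SMARTER kit and sequenced paired-end on an Illumina instrument, and the processing notes name mm10, while the aligner, the counting tool, strand use and read filters were not given in the sources used here. Groups and replicate numbers came from the sample titles. Since both tables hold the libraries of WT D1, each comparison stayed within 1 table. As TPM is no count and carries no depth, no interval for counting error was computed.

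Genes of at least 1 TPM in at least 3 libraries of a table were tested on log2(TPM + 1) with limma 3.58.1 (R 4.3.3), using group means, contrasts and a variance trend, with 16 residual degrees of freedom in the table of injured muscle and 4 in the table with control. All groups of a table shared 1 estimate of the spread. P-values were adjusted by Benjamini-Hochberg over every gene tested in that comparison, and a gene was called (rose or fell) at an adjusted p under 0.05. Single values were compared by exact permutation of libraries, where 3 against 3 cannot go below 0.1 and the average over days cannot go below 1.25e-05. The fit was tested on simulated data with changes larger than any KO difference of the members. Its power for differences of their size was not tested. Alternatives were pseudocounts of 0.5 and 0.1, no filter, a filter of 5 TPM, median-of-ratios scaling, quantile normalization, library quality weights, a fit of only the groups compared, a replicate block, leaving out each library and, added after seeing the data, leaving out the 3 libraries lowest in leukocyte markers. Summing rows of the same name was not run, because each member has 1 row.

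The 8 members, the lists of related and marker genes and the motifs were chosen with earlier results of these data known. The genes named from a list are the 2 with the largest injury difference and the 2 with the lowest p on average between KO and WT, with 1 gene not reported here, and the genes most like a member are the 3 with the highest Pearson's r. Promoter windows were taken from RefSeq (GRCm38.p6). Permutations and correlations in Python 3.11.15 used numpy 2.4.6, pandas 2.3.3 and scipy 1.17.1.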

Additional observations from a re-analysis of the deposited data

How the results depend on the processing

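Of the 452 values of single members recomputed with other settings, 412 kept their direction and their side of the threshold, as did 295 of 324 with 1 library left out. These values covered every tested member after injury and between KO and WT on D1, D4 and D7. In the other comparisons they covered selected members only, so that further signs may turn there. The sign turned for Gsdme after injury with quantile normalization (-0.068), for Casp4 between KO and WT on D1 without the 3 libraries low in leukocyte markers (-0.16, and -0.16 to 0.74 with 1 library left out), for Casp4, Casp8 and Ninj1 on D4 with quality weights (0.27, 0.058 and 0.021), for Pycard on average with quality weights (0.034), and for Gsdme from D7 to D14 in WT with median-of-ratios scaling (0.32), quantile normalization (0.48) and 1 library left out (-0.17 to 0.043). The cause was not tested.

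The number of members called of those tested was 7 of 7 after injury and 4 of 4 with a filter of 5 TPM, which left fewer members to test. It was 0 between KO and WT on D7 and 1 (Gsdme) with quality weights, and 0 on average and 1 (Gsdme) with median-of-ratios scaling or quality weights. From D1 to D4 in WT it was 0, and 1 with median-of-ratios scaling (Gsdme), quantile normalization (Gsdme) or without the 3 libraries (Nlrp3). From D4 to D7 in WT it was 0, and 1 with median-of-ratios scaling, 7 with quality weights, 2 with only the groups compared and 2 without the 3 libraries. From D7 to D14 in WT it was 4, and 1 with no filter, median-of-ratios scaling or quantile normalization. From D1 to D4 in KO it was 2, and 1 with no filter, a filter of 5 TPM, quality weights or without the 3 libraries, 4 with quantile normalization and 0 with only the groups compared. From D4 to D7 in KO it was 0, and 1 (Pycard) without the 3 libraries. From D7 to D14 in KO it was 0, and 5 with quality weights and 2 without the 3 libraries.

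With 1 library left out the number called was 6 to 7 after injury, 0 to 1 on average, 0 to 3 from D7 to D14 in WT, 1 to 5 from D1 to D4 in KO and 0 to 2 from D4 to D7 in KO, and 0 in each of the other comparisons. Deviations of same-numbered WT and KO libraries from their group means had correlations of -0.40 to 0.39. With 3 libraries per group these values cannot show whether such libraries are paired. With the replicate block the members called were 6 after injury, without Gsdme (adjusted p = 0.0574), and 3 from D7 to D14 in WT, without Gsdmd (adjusted p = 0.0539), and the block changed no other call printed for a member. Over all genes, the number called was 7965 after injury and 5226 with quantile normalization; between KO and WT it was 1 on D1 and 14 with no filter, 0 on D4 and 21 with no filter, 0 on D7 and 533 with quality weights, 0 on D14 and 51 with quality weights, 1 on average and 11 with quality weights, and 0 between days and 19 with quality weights. In WT it was 3120 from D1 to D4 and 1294 with only the groups compared, 1941 from D4 to D7 and 10595 with quality weights, and 5000 from D7 to D14 with 2106 to 9503 over the alternatives. With 1 library left out these 3 counts were 2074 to 3551, 210 (without WT D4 replicate 1) to 1598, and 286 (without WT D14 replicate 3) to 4177. In KO it was 3049 and 302 with only the groups compared, 0 and 688 without the 3 libraries, and 88 with 47 to 7861 over the alternatives, and with 1 library left out 1096 (without KO D1 replicate 3) to 3980, 0 to 1375 (without KO D4 replicate 2) and 10 (without KO D7 replicate 3) to 381. Without read depth, low values such as those of Nlrp3 carry an unknown counting error.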
